A study of Mus musculus with 79 samples.

Results

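The genes of oxidative phosphorylation were followed in RNA of sorted nuclei from the mouse visual cortex. Members were the protein-coding genes of the GENCODE vM21 annotation whose symbols name subunits of the 5 respiratory complexes. The rule reads symbols and no measured value, but it was set with earlier results of these data known. There were 98 of them among 55335 genes in the count table. Of these, 85 are encoded in the nucleus, with 37 in complex I, 4 in complex II, 8 in complex III, 18 in complex IV and 18 in complex V. The other 13 are encoded in mitochondrial DNA, with 7 in complex I, 1 in complex III, 3 in complex IV and 2 in complex V.

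All mice were heterozygous (wt/ki) for both INTACT and VIP Cre. Cre recombinase is then made in VIP neurons, GABAergic interneurons of the cortex named for vasoactive intestinal peptide, and the INTACT allele tags their nuclei. They received AAV-Syn1-Kir2.1-2a-mScarlet-KASH, or the same construct with Kir2.1(Mutant) in its place, or no AAV. Kir2.1 is an inwardly rectifying potassium channel that lowers excitability, the Syn1 promoter drives it in neurons, and the KASH domain holds the red fluorescent protein at the nuclear envelope. Dark housing for 10 days is on the label of all 79 libraries, controls included. The study asked what the activity left in the dark does in the cortex. Injection was at 55 to 60 days of age, with darkness starting 3 days later.

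The Kir2.1 libraries numbered 10 from transduced VIP nuclei, 8 from transduced neurons, 10 from non-transduced VIP nuclei and 10 from all non-transduced nuclei. For the mutant these numbers were 9, 8, 9 and 9. The absence of AAV was represented by 3 VIP and 3 all-nuclei libraries. In the same order, 4, 3, 3 and 3 of the Kir2.1 libraries and 5, 4, 5 and 5 of the mutant libraries carry the male label. All libraries without AAV carry it too, and the rest carry the female label. Each library was made from 50 to 100 sorted nuclei. Animals are not identified on the labels, and the p-values therefore reflect only how these libraries vary, which may be partly technical. Total counts ran from 3219899 to 9267246, with a median of 6170915, and 16994 to 23757 genes had at least 1 count. The non-transduced VIP libraries carried VIP markers as labelled: 10 of 12 were higher than in all nuclei and 0 lower, and 12 of 12 markers of excitatory neurons were lower. Kcnj2, which encodes Kir2.1, had median levels of 597 counts per 1000000 (CPM) in Kir2.1 and 823 CPM in mutant transduced VIP nuclei, against 15.2 and 22 CPM in their non-transduced counterparts. Both vectors carry a form of the channel. Between them, Kcnj2 had a log2 fold change of -0.36 ± 0.33 (SE) in transduced VIP nuclei, with an edgeR adjusted p of 0.808. Library 1 of the Kir2.1 transduced VIP group and library 9 of the Kir2.1 non-transduced VIP group stood apart from their groups, with correlations of 0.889 and 0.877 to the group's median profile, under the limit of 0.898. Where leaving them out changed a call or moved a median of the nuclear members by over 0.05 (log2), both values are given.

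Oxidative phosphorylation takes place in the inner mitochondrial membrane. Complexes I and II pass electrons from NADH and succinate to ubiquinone, complex III passes them to cytochrome c and complex IV to oxygen, and ATP synthase, complex V, uses the proton gradient that complexes I, III and IV build up. Complex II is encoded wholly in the nucleus, whereas the other complexes combine nuclear subunits, imported from the cytosol, with a core made inside the mitochondrion. Neuronal demand for ATP is known to follow activity. In sorted nuclei, transcripts of the nuclear genes are measured close to their place of synthesis, while transcripts of mitochondrial DNA are made outside the nucleus.

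The mitochondrially encoded genes split into 7 with at least 12626 counts over all libraries and 6 with at most 151. Low counts mostly went with repeated sequence, with mt-Atp8 as the exception. A stretch of the mitochondrial genome has a near-identical copy on nuclear chromosome 1. How repeated reads were counted is not given, and whether the copy lowers these counts was not tested. This copy carries 7 unprocessed pseudogenes on the minus strand, spans chr1:24611535-24616197 of GRCm38 (4663 bases) and received 88 counts over all 79 libraries. For each transcript, the share of its 50-base words that occur in another annotated gene was computed. For mt-Co2, a core subunit of complex IV, all 100% of these words occur in 2 other genes, 99.5% of them in the pseudogene Gm28661, and mt-Co2 received 1 count in all. The first 60 bases of both, printed to show that a read from one cannot be told from the other, are the same.
mt-Co2 bases 1 to 60: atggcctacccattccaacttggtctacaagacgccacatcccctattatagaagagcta
Gm28661 bases 1 to 60: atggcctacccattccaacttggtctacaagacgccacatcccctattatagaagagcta

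The other transcripts held almost wholly by the copy also had low counts. mt-Atp6, of the membrane part of ATP synthase, shared 99.5% of its words and had 0 counts. mt-Co3, the third core subunit of complex IV, shared 99.9% and had 3 counts. The complex I subunits mt-Nd4l and mt-Nd3 shared 98.8% and 98.0% and had 19 and 151 counts. mt-Atp8, the second mitochondrial subunit of ATP synthase, also had 0 counts but shared 0% of its words with an annotated gene. Its position, chrM:7766-7969, corresponds to chr1:24614608-24614812, inside the span of the copy and mostly between its annotated pseudogenes. No level was read from these 6 genes, and complex V has no measurable mitochondrial member here.

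The 7 measurable genes shared 0% to 62.2% of their words and had at least 12626 counts each. They were mt-Nd1, mt-Nd2, mt-Nd4, mt-Nd5 and mt-Nd6 of complex I, mt-Cytb of complex III and mt-Co1 of complex IV. The edge of the copy runs through mt-Nd4, whose first 876 of 1378 bases are in the pseudogene Gm28439. Its bases 847 to 906 are printed with the bases held by the copy in capitals, so that reads lying in the lower-case part can be placed on mt-Nd4.
mt-Nd4 bases 847 to 906: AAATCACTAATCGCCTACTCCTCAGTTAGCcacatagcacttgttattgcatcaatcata

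**Figure D1:**
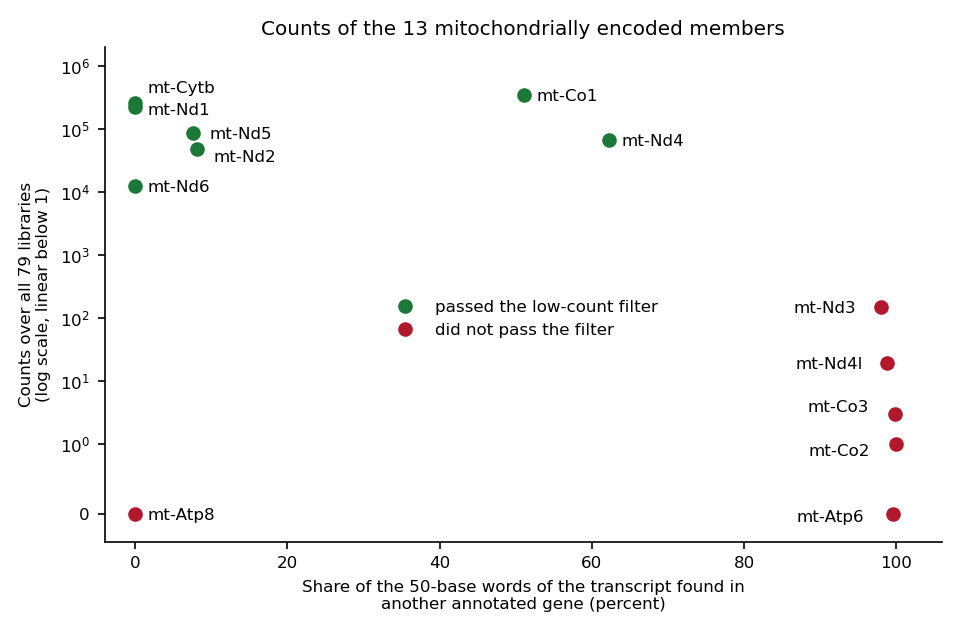
Counts over all 79 libraries (y axis, log scale, linear below 1) against the share of 50-base words of each mitochondrially encoded transcript that occur in another annotated gene (x axis, percent), 1 point per gene. The 5 genes that share at least 98.0% of their words have at most 151 counts, mt-Atp8 lies at 0 counts without shared words, and the other 7 genes have at least 12626 counts.

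Per kilobase of exon, 3 mitochondrial genes stood above every nuclear member but 1 entry of uncertain counts. Levels are CPM after TMM scaling, averaged over the 79 libraries. The length is the union of all annotated exons of a gene, which can exceed its longest coding transcript. For Ndufs1 these lengths are 8086 and 2661 bases, and for Atp5b 4237 and 1916 bases. Levels per kb and their order therefore depend on the length used. mt-Nd1 averaged 484 CPM per kb, mt-Cytb 464 and mt-Co1 457. The other complex I genes came in a lower tier, with mt-Nd4 at 102, mt-Nd5 at 97.1 and mt-Nd2 at 96.1 CPM per kb. mt-Nd6, the only member encoded on the minus strand of the mitochondrial sequence, was at 51.3 CPM per kb. For mt-Nd4 and mt-Co1, 62.2% and 51.1% of the words cannot be assigned to them alone, so these levels are lower limits if repeated reads were left out.

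Among nuclear members, subunits of complexes IV and V led. The highest value, 502 CPM per kb, belonged to the Atp5o entry ENSMUSG00000116933, but that entry overlaps both the other Atp5o gene and Donson, a replication gene, on the same strand (chr16:91684398-91926982), shares 89.8% of its words, and its level is therefore uncertain. Next came Cox8a at 148 CPM per kb, Cox4i1 at 83.2, Cox6a1 at 83.1 and Cox6b1 at 80.3, all structural subunits of complex IV that surround its catalytic core. Atp5b, the catalytic beta subunit of ATP synthase, was at 69.1, Uqcrc1, a core subunit of complex III, at 28.3, Sdhb, the iron-sulfur subunit of complex II, at 30.02, and Ndufs1, the largest core subunit of complex I, at 11.2 CPM per kb.

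Where complex IV has alternative isoforms, the broadly expressed isoform dominated. Cox4i1 was at 83.2 CPM per kb and its lung isoform Cox4i2 at 0.308. Cox6a1 stood at 83.1 against 4.46 for Cox6a2, the heart and skeletal muscle isoform, and Cox7a2 at 46.4 against 0.71 for Cox7a1, likewise a muscle isoform. Cox6b1 was at 80.3 and the testis isoform Cox6b2 at 0.327 CPM per kb, and Cox7b was at 73.1 and Cox7b2 at 5.46. Cox8a reached 148 CPM per kb, while Cox8b had 2 counts in all and Cox8c had 0 counts. Ndufa4, which textbooks now place with complex IV, was at 41.7 CPM per kb and its relative Ndufa4l2 at 0.124. The 3 genes that encode the same mature c subunit of the ATP synthase ring differed less, with Atp5g3 at 31.6, Atp5g2 at 10.8 and Atp5g1 at 7.87 CPM per kb.

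Nuclear members were also screened for shared sequence. The median share of repeated words was 0.857%, 39 of 85 had none, and 3 exceeded 50%: Atp5l (84.9%, words found in 14 other genes) and both Atp5o entries. Exons of 30 members overlap those of another gene, and the use of strand in counting was not given in the sources used here, so their counts may hold reads of the partner. Ndufa13 overlaps Tssk6 in this way, Ndufa11 overlaps Vmac, Cox4i1 overlaps Emc8 and Cox6a2 overlaps Itgad.

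As a share of all counts, mitochondrially encoded members ran from 0.069% to 0.360% of a library. The medians were 0.234% in Kir2.1 and 0.206% in mutant transduced VIP nuclei, and 0.129% in Kir2.1 and 0.177% in mutant transduced neurons. Among non-transduced VIP nuclei they were 0.261% with Kir2.1, 0.258% with the mutant and 0.203% without AAV, and among all nuclei 0.215%, 0.254% and 0.196%. The Kir2.1 transduced neurons had the lowest median of the 10 groups, with libraries between 0.1002% and 0.201%, and their range overlapped that of mutant transduced neurons, 0.069% to 0.272%. In bulk samples, fewer cells of a type and less RNA per cell cannot be told apart.

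Nuclear members together took 0.483% of counts in Kir2.1 and 0.447% in mutant transduced VIP nuclei (medians), and 0.432% in Kir2.1 and 0.334% in mutant transduced neurons. In non-transduced VIP nuclei the medians were 0.507% with Kir2.1, 0.404% with the mutant and 0.549% without AAV, and in all nuclei 0.397%, 0.369% and 0.523%. The ranges of Kir2.1 and mutant groups overlapped in every population. A single library, number 9 of the Kir2.1 non-transduced VIP group, reached 1.06%, against 0.658% for the next library of that group. Cytosolic ribosomal protein genes also took a larger median share with Kir2.1 than with the mutant. It was 0.295% against 0.221% in transduced VIP nuclei and 0.253% against 0.177% in transduced neurons. In non-transduced VIP nuclei it was 0.281% against 0.224%, and in all nuclei 0.237% against 0.212%. The ranges overlapped here as well, and whether both sets share a source of these differences was not tested.

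**Figure D2:**
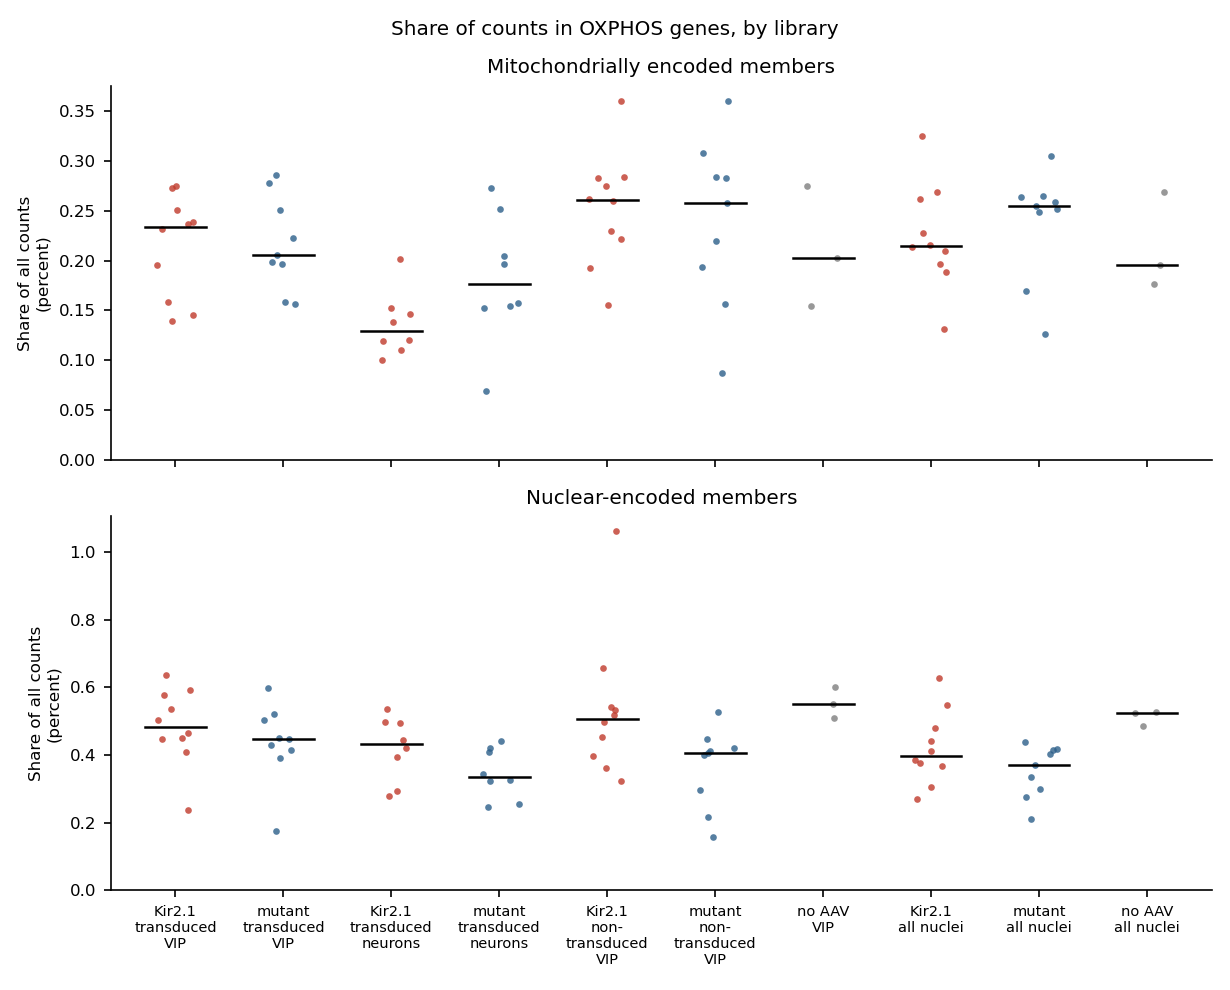
Share of all counts (y axes, percent) in mitochondrially encoded members (top) and nuclear-encoded members (bottom), 1 point per library and a bar at the median of each of the 10 groups. Medians of the mitochondrial share lie between 0.129% in Kir2.1 transduced neurons and 0.261% in Kir2.1 non-transduced VIP nuclei, and 1 Kir2.1 non-transduced VIP library lies at 1.06% in the nuclear share.

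In transduced VIP nuclei, where the channel acts in the VIP cells themselves, no respiratory chain gene passed the test of Kir2.1 against the mutant. Of 81 nuclear members tested with edgeR's quasi-likelihood test, 0 passed an adjusted p of 0.05, and of 7 mitochondrial members 0 passed, whereas 1.39% of the 21207 genes tested did (0.354% higher and 1.03% lower). Without adjustment, at p under 0.05, 0 nuclear members were higher and 2 lower, beside 5.39% and 5.82% of all genes, and 0 mitochondrial members passed. DESeq2 called 1 nuclear member lower and 0 mitochondrial ones. The median log2 fold change was 0.09 over the nuclear members tested and -0.12 over the mitochondrial ones, beside 0.04 over all genes tested, and was 0.03 and -0.17 without the libraries that stand apart. Without mutant library 1 the nuclear median turned to -0.02, with 36 of 81 above 0 against 53 of 81, and without each single library in turn it ran from there to 0.15 and the mitochondrial median from -0.17 to -0.02. The core subunits lay close to 0, with log2 fold changes of 0.06 for Ndufs1, 0.18 for Sdhb, 0.20 for Uqcrc1, 0.06 for Cox4i1 and 0.09 for Atp5b, and of -0.13 for mt-Nd1, -0.00 for mt-Cytb and -0.14 for mt-Co1. For mt-Nd1 the 95% interval of the difference ran from -0.49 to 0.24. mt-Nd1 had 233, 446 and 689 CPM (lowest, median, highest) in Kir2.1 and 352, 459 and 619 CPM in mutant transduced VIP nuclei, and the range of the mutant libraries lay within that of Kir2.1.

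Cox6a2, the muscle-type subunit of complex IV, was the member furthest from 0 in these nuclei. It had 0, 0.826 and 3.38 CPM (lowest, median, highest) in Kir2.1 and 2.099, 5.16 and 12.9 CPM in mutant transduced VIP nuclei. The groups overlapped over a narrow range, and the level is low in all libraries. The log2 fold change of Cox6a2 was -2.52 ± 0.76 (SE), with an adjusted p of 0.0800 by edgeR and 0.00921 by DESeq2 (log2 fold change -2.55). Its isoform Cox6a1 had a log2 fold change of 0.03. The reads of Itgad, on the opposite strand, could not be separated from those of Cox6a2. Summed levels of cell type markers differed between the same groups, while few single markers passed. Those of 9 markers of other interneurons were 42.6 to 103 CPM in Kir2.1 and 104 to 379 CPM in mutant nuclei, with Ndnf at 0 in both, and 1 of 8 tested was lower (median log2 fold change -0.10). The 12 VIP markers summed to 7327 to 12617 CPM in Kir2.1 and 17558 to 20106 CPM in mutant nuclei, where 4 of 12 were lower and the median was 0.11. The 12 excitatory markers summed to 929 to 1491 CPM in Kir2.1 and 544 to 682 CPM in mutant nuclei, where 1 of 12 was higher and the median was 0.66. Such sums can rest mostly on 1 marker. In library 9 of the Kir2.1 non-transduced VIP group, Adarb2 had 11299 of the 15689 CPM of VIP markers. Camk2a had 517 of the 582 CPM of excitatory markers there. The part of the marker levels in the values of Cox6a2 was not tested.

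In transduced neurons, 1 of the 7 mitochondrially encoded genes tested, mt-Nd1, was lower with Kir2.1. mt-Nd1 encodes the membrane subunit of complex I at the ubiquinone site. It had 188, 271 and 332 CPM (lowest, median, highest) in Kir2.1 and 195, 466 and 573 CPM in mutant transduced neurons. All 8 Kir2.1 libraries lay below the median of the 8 mutant libraries, although the lowest mutant library lay among them. The log2 fold change of mt-Nd1 was -0.65 ± 0.19 (SE) with an adjusted p of 0.0361 (edgeR), and 0.0114 by DESeq2. It was 1 of 7 mitochondrial members tested, beside 5.61% of the 15949 genes tested that were called in either direction with 2.19% higher and 3.42% lower.

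The other 6 had log2 fold changes below 0 and did not pass. mt-Co1, the catalytic subunit of complex IV, had 314, 426 and 678 CPM in Kir2.1 and 229, 653 and 1014 CPM in mutant neurons, with a log2 fold change of -0.53 ± 0.21 and an adjusted p of 0.149. mt-Cytb, the cytochrome b of complex III, had 233, 305 and 460 CPM in Kir2.1 and 174, 450 and 656 CPM in mutant neurons, with -0.43 and an adjusted p of 0.258. The median over the 7 was -0.43, beside 0.05 over all genes tested, and 4 of the 7 were lower at an unadjusted p of 0.05, beside 9.08% of all genes. The call of mt-Nd1 was lost when the sex label was added as a covariate (adjusted p = 0.0502, log2 fold change -0.60) and when 1 of 9 libraries was left out (adjusted p up to 0.0850, log2 fold change -0.76 to -0.58 over all 16 omissions): mutant libraries 2, 4, 5, 7 and 9 and Kir2.1 libraries 3, 4, 5 and 8. Without mutant library 3, mt-Co1 passed as well (log2 fold change -0.67, adjusted p = 0.0243).

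In the same neurons the nuclear members lay mostly above 0. Of 78 tested, 0 passed with edgeR, 11 were higher and 0 lower at an unadjusted p of 0.05 (9.25% and 9.08% of all genes), and DESeq2 called 1 higher. The count of 11 was 6 without Kir2.1 library 3 or 10, 7 without Kir2.1 library 4 or mutant library 3, and 18 and 17 without Kir2.1 libraries 6 and 8. Their median log2 fold change was 0.20, with 66 of 78 above 0, beside 54.1% of all genes tested. By complex, the medians were 0.29 in complex I, 0.15 in complex II, 0.16 in complex III, 0.10 in complex IV and 0.20 in complex V. The member that DESeq2 called was Ndufv3, an accessory subunit of the NADH-oxidising module of complex I. Ndufv3 had 13.2, 27.9 and 59.7 CPM in Kir2.1 and 6.62, 12.8 and 31.2 CPM in mutant neurons, with a log2 fold change of 1.01 ± 0.33 and an adjusted p of 0.0731 by edgeR (1.00 and 0.0384 by DESeq2). Among the core subunits, the log2 fold changes were 0.04 for Ndufs1, 0.13 for Sdhb, 0.14 for Uqcrc1, 0.42 for Cox4i1 and 0.14 for Atp5b, with adjusted p from 0.390 to 0.936.

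Around the respiratory chain, single genes passed in transduced neurons: of 123 tested in 6 lists, 3 were higher and 0 lower, or 2.44%, beside 5.61% of all genes called. Atpif1, the inhibitor that binds ATP synthase when it runs in reverse, had 65.7, 127 and 235 CPM in Kir2.1 and 44.5, 77.9 and 109 CPM in mutant neurons, a log2 fold change of 0.82 (adjusted p = 0.0214). Slirp, an RNA-binding protein that stabilises mitochondrial messenger RNAs, rose by 1.11 on the log2 scale (adjusted p = 0.00234), to 55.3, 68.2 and 99.6 CPM in Kir2.1 neurons, against 16.1, 33.7 and 55.9 CPM in mutant neurons. Of 23 regulators of mitochondrial biogenesis and transcription, 22 were tested and Slirp alone passed. Of 17 glycolysis genes 1 passed, the neuronal enolase Eno2 (log2 fold change 0.64, adjusted p = 0.0415), and of 45 assembly factors, 17 genes of the tricarboxylic acid cycle and pyruvate dehydrogenase and 16 mitochondrial carriers 0 passed.

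Summed levels of markers of other cell classes, and single nuclear RNAs, differed between the same 2 groups of neurons. The 9 astrocyte markers summed to 199, 231 and 295 CPM in Kir2.1 and 388, 414 and 482 CPM in mutant neurons, without overlap, and 2 of the 7 tested were lower. The 9 GABAergic entries summed to 76.4, 400 and 971 CPM in Kir2.1 and 482, 1010 and 1247 CPM in mutant neurons, and 2 of 8 tested were lower. Of all genes tested, 3.42% were called lower. A sum can rest mostly on 1 marker. In library 9 of the Kir2.1 non-transduced VIP nuclei, Slc1a2 had 373 of the 443 CPM of astrocyte markers. Erbb4 had 5579 of the 7565 CPM of GABAergic markers there. The makeup of the sums in neurons is not given here. Fewer cells of a class and lower levels per cell cannot be told apart here. The nuclear-retained RNAs Malat1 (log2 fold change 0.93, adjusted p = 0.0220) and Snhg11 (0.52, adjusted p = 0.00272) were higher with Kir2.1. The 2 mitochondrial ribosomal RNAs took 0.121%, 0.159% and 0.315% of counts in Kir2.1 and 0.102%, 0.221% and 0.310% in mutant neurons, and neither passed. Their part in the mt-Nd1 result was not tested.

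**Figure D3:**
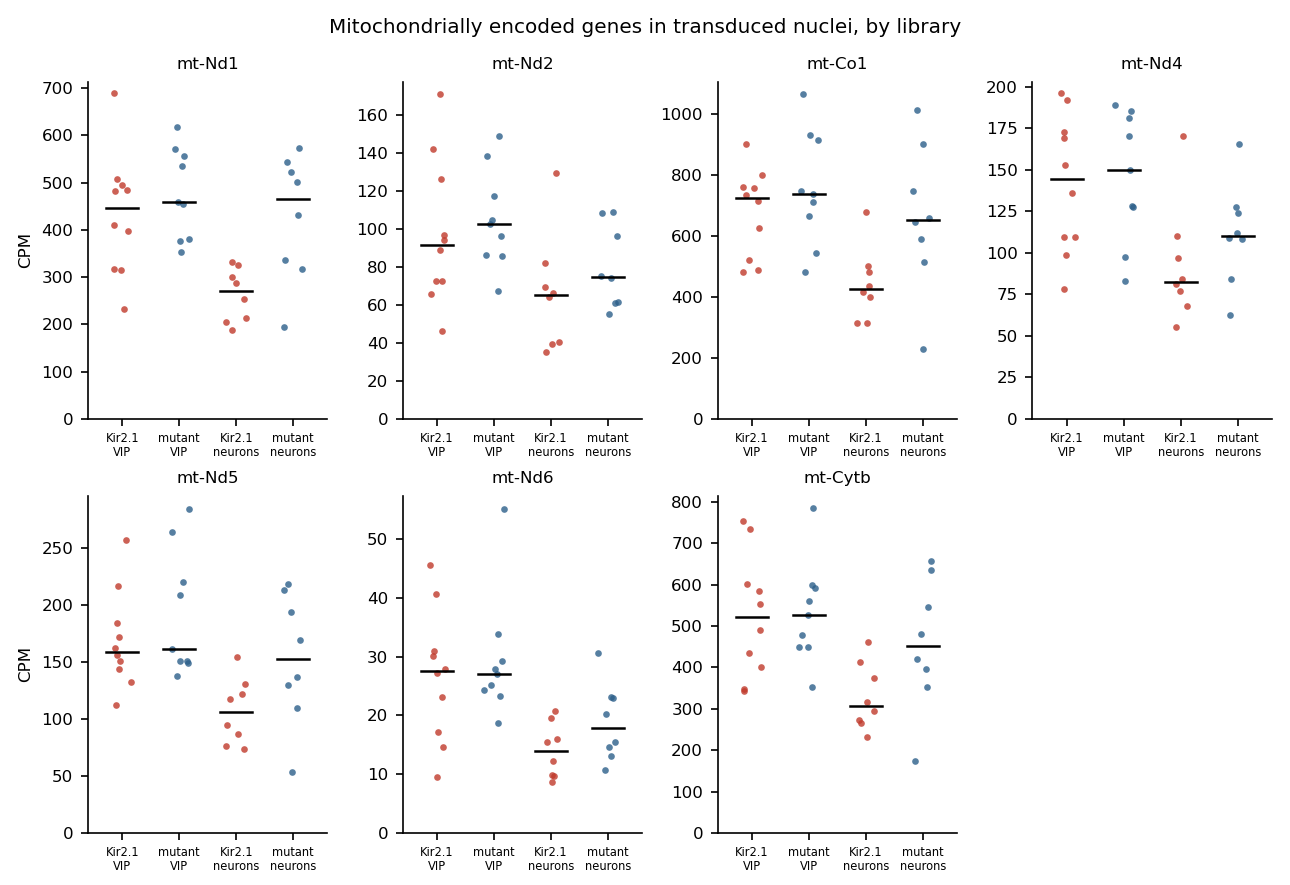
CPM (y axes) of the 7 measurable mitochondrially encoded genes in transduced nuclei, 1 point per library and a bar at the median, with Kir2.1 and mutant VIP nuclei on the left and Kir2.1 and mutant neurons on the right of each panel. For mt-Nd1 all 8 Kir2.1 neuron libraries lie below the mutant neuron median of 466 CPM, while the VIP groups with medians of 446 and 459 CPM overlap.

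When transduced VIP nuclei were set against transduced neurons with Kir2.1 in both, the mitochondrial genes were higher in VIP nuclei. Of 7 tested, 6 passed and 0 were lower, beside 18.9% of 18359 genes called in either direction and 8.21% called higher. mt-Nd1 had 233, 446 and 689 CPM in VIP nuclei and 188, 271 and 332 CPM in neurons, with a log2 fold change of 0.68 ± 0.19 (adjusted p = 0.00576), and 9 of 10 VIP libraries lay above the neuron median. mt-Cytb had 343, 521 and 753 CPM in VIP nuclei and 233, 305 and 460 CPM in neurons (0.64, adjusted p = 0.0143), and all 10 VIP libraries lay above the neuron median. mt-Nd6 had 9.53, 27.5 and 45.6 CPM in VIP nuclei and 8.67, 13.9 and 20.8 CPM in neurons (0.89, adjusted p = 0.0173). The ranges of the 2 populations overlapped for each of them.

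mt-Nd5 (log2 fold change 0.62, adjusted p = 0.0244), mt-Co1 (0.58, adjusted p = 0.0260) and mt-Nd4 (0.57, adjusted p = 0.0447) also passed, and mt-Nd2 did not (0.53, adjusted p = 0.110). Without Kir2.1 transduced VIP library 1, 5 passed and mt-Nd4 did not (adjusted p = 0.0825), and mt-Nd4 was also lost when only the groups compared entered the fit (adjusted p = 0.0591). The mitochondrial ribosomal RNA mt-Rnr2 was higher as well (0.53, adjusted p = 0.0295), whereas the nuclear-retained RNAs Malat1 (-0.75) and Miat (-0.65) were lower in VIP nuclei. The part of such shifts in RNA content was not tested. Of 79 nuclear members, 0 passed with edgeR, 2 were higher and 0 lower at an unadjusted p of 0.05 (12.6% and 15.9% of all genes), and DESeq2 called 2 higher, Atp5f1 (0.49) and the uncertain Atp5o ENSMUSG00000116933 (0.32). Their median was 0.13, beside -0.01 over all genes tested, with 0.06 for Ndufs1, 0.16 for Sdhb, 0.22 for Uqcrc1, -0.14 for Cox4i1 and 0.42 for Atp5b.

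With the mutant in both populations, 2 of 79 nuclear members were higher in VIP nuclei and 0 of 7 mitochondrial members passed with edgeR, beside 17.9% of genes called in either direction and 7% called higher. Unadjusted, 1 mitochondrial member was higher and 0 lower at p under 0.05, beside 11.4% and 16% of all genes, and DESeq2 called 0. The log2 fold changes were 0.13 for mt-Nd1, 0.18 for mt-Cytb and 0.15 for mt-Co1, with a median of 0.29 over the 7. Of the nuclear members, 11 were higher and 0 lower at the same unadjusted edgeR p. Their median log2 fold change was 0.25 with 70 of 79 above 0, beside -0.03 over all genes tested. Ndufc2, a small membrane-arm subunit of complex I, had 17.1, 33.6 and 67.8 CPM in VIP nuclei and 11.9, 21.6 and 29.2 CPM in neurons (log2 fold change 1.03 ± 0.31, adjusted p = 0.0141). Ndufa13, also called GRIM-19, had 27.4, 53.6 and 70.3 CPM in VIP nuclei and 13.8, 28.3 and 44.4 CPM in neurons (0.86 ± 0.26, adjusted p = 0.0162). For both, 8 of 9 VIP libraries lay above the neuron median. DESeq2 called Ndufa6 (0.77) and Sdha (0.44) in addition. Without the libraries that stand apart, which share the fit, 3 passed, with Ndufa6 added (0.77, adjusted p = 0.0368).

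Whether the vectors' effects differ between VIP nuclei and neurons was tested as an interaction. Of 79 nuclear and 7 mitochondrial members 0 passed with edgeR and 0 with DESeq2, beside 0.316% of genes called. Unadjusted p under 0.05 held 0 nuclear members higher and 2 lower (4.37% and 2.65% of all genes), and 1 mitochondrial member higher, mt-Nd1 (log2 difference of fold changes 0.56 ± 0.26, unadjusted p = 0.040, adjusted p = 0.662). The mt-Nd1 response in neurons was therefore not shown to differ from that in VIP nuclei. Estimates for the other named members were 0.46 for mt-Cytb, 0.43 for mt-Co1, 0.06 for Ndufs1, 0.09 for Sdhb, 0.10 for Uqcrc1, -0.32 for Cox4i1 and 0.00 for Atp5b. The median over the nuclear members was -0.09 with 31 of 79 above 0, and without the libraries that stand apart -0.19 with 19 of 79 above 0. Without them mt-Nd1 was at 0.42, and 0 mitochondrial members had an unadjusted p under 0.05.

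**Figure D4:**
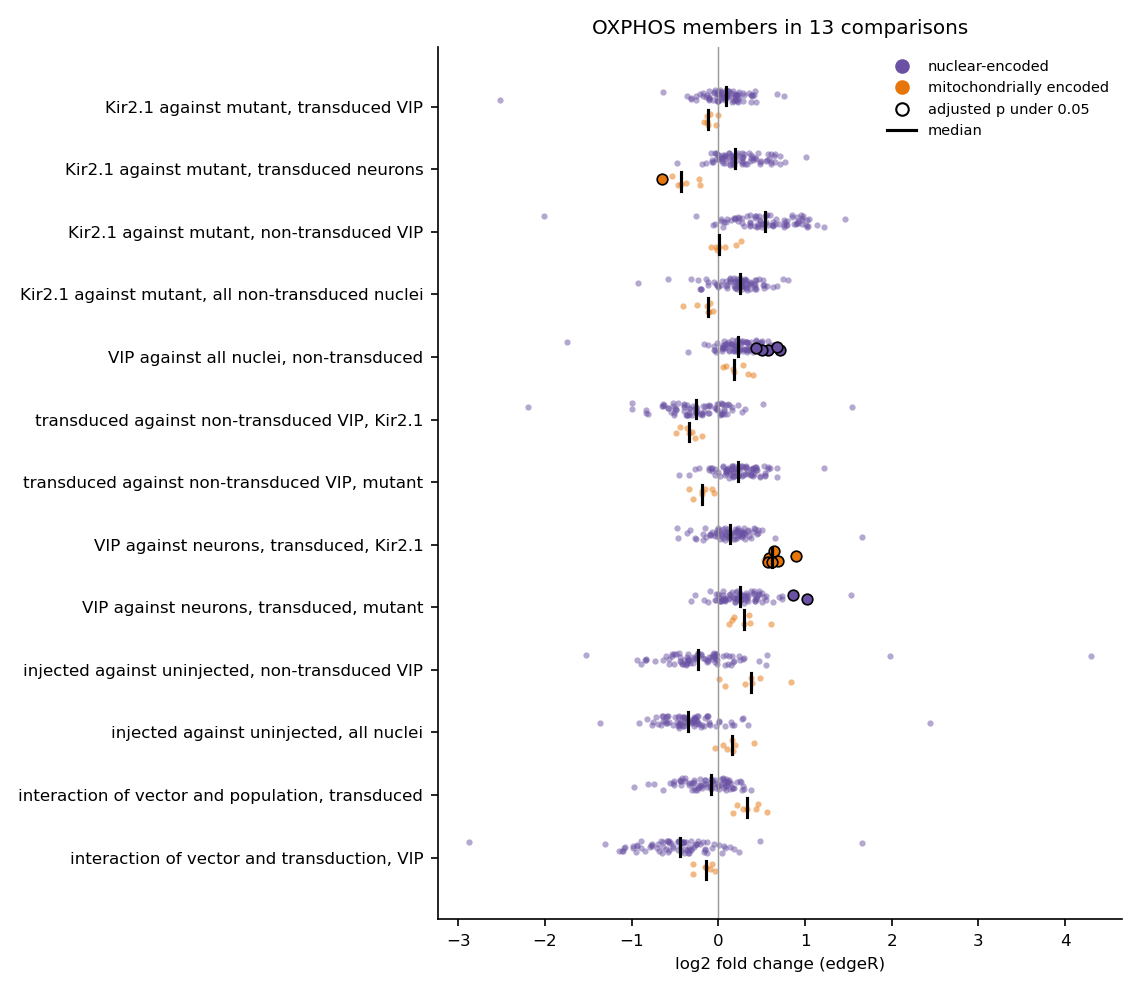
Log2 fold changes from edgeR (x axis) of each tested member in the 13 comparisons (y axis), nuclear-encoded members above and mitochondrially encoded members below in each row, with a bar at the median and outlined points for adjusted p under 0.05. Nuclear members passed in 2 of the comparisons (5 in VIP against all nuclei and 2 in VIP against neurons with the mutant), and mitochondrial members passed in 2 (6 in VIP against neurons with Kir2.1 and 1 in Kir2.1 against mutant neurons).

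In VIP nuclei without the vector, from cortex where other neurons carried it, the nuclear members lay mostly above 0 for Kir2.1 against the mutant, and no member passed the test. Of 81 nuclear members 0 passed with edgeR, beside 0% of 21207 genes called by edgeR. At an unadjusted edgeR p of 0.05, 35 were higher and 1 lower, beside 4.77% and 3.93% of all genes. DESeq2 called 1 higher, and its share of all genes is not given here. The median log2 fold change was 0.54 with 77 of 81 above 0, beside 0.01 over all genes tested. It was 0.80 in complex III, 0.61 in complex IV, 0.53 in complex I, 0.47 in complex V and 0.42 in complex II. The median share of cytosolic ribosomal protein genes was also higher with Kir2.1 (0.281% of counts against 0.224%), and its part was not tested. Atp5j2, the f subunit of ATP synthase, which DESeq2 called (log2 fold change 1.05, adjusted p = 0.0295), had 35.5, 64.1 and 114 CPM in Kir2.1 and 9.54, 36.3 and 53.0 CPM in mutant non-transduced VIP nuclei, and by edgeR 1.02 ± 0.24 with an adjusted p of 0.252. Cox4i1 had a log2 fold change of 0.95 and Ndufs1 of 0.19, Sdhb of 0.42, Uqcrc1 of 0.55 and Atp5b of 0.48. The 7 mitochondrial members had a median of 0.00 (0 passed with edgeR or DESeq2, and 0 at an unadjusted p of 0.05), with -0.08 for mt-Nd1, 0.07 for mt-Cytb and 0.00 for mt-Co1.

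One library stood out in these genes. Library 9 of the Kir2.1 group was the highest of its 10 libraries in 60 of the 81 nuclear members tested, and the median member was 3.03-fold above the median of the other 9. In it Uqcrq, a small subunit of complex III, had 417 CPM against 72.0 CPM in the next library, and Cox4i1 had 634 CPM against 283 CPM. This library also had 0.701% of its counts in cytosolic ribosomal protein genes and 0.869% in mitochondrial ribosomal RNAs, against at most 0.442% and 0.439% in the other 9. Markers of other interneurons summed to 445 CPM in it, against 103 to 363 CPM in the other 9, and astrocyte markers to 443 CPM, against 269 to 410 CPM. Most of the astrocyte sum was Slc1a2 (373 CPM, others at most 294), with Gfap at 4.02 and Aqp4 at 0 CPM. Most of the interneuron sum was Npy (302 CPM, others at most 285) and Sst (86.9 CPM, others at most 19.8). Lhx6 and Ndnf were at 0 CPM. Oligodendrocyte markers summed to 230 CPM in this library, against 186 to 544 CPM. Its vascular markers summed to 18.8 CPM, while another library of the group reached 317 CPM (median of the 9 others 9.79 CPM, mutant libraries at most 10.05 CPM). Their part in the result was not tested. Without the libraries that stand apart, the median over the nuclear members was 0.32, 68 of 81 lay above 0, 9 were higher at an unadjusted p of 0.05 and 0 passed. Without any other single library of the groups compared, 26 to 44 were higher at that p.

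In all non-transduced nuclei, a mixture of the cortex's cell classes, no member passed either. Of 80 nuclear and 7 mitochondrial members 0 passed with edgeR and 0 with DESeq2, beside 0% of 21362 genes called by edgeR and 2 genes called by DESeq2. Unadjusted, 9 nuclear members were higher and 0 lower at p under 0.05 (3.3% and 2.74% of all genes), and 0 mitochondrial members did so; the count of 9 ran from 6 without Kir2.1 library 3 to 16 without Kir2.1 library 8. The median was 0.25 over the nuclear members and -0.12 over the mitochondrial ones, beside -0.00 over all genes tested, and 66 of 80 nuclear members (82.5%) lay above 0, beside 49.6% of all genes. The values nearest the threshold were those of Ndufa13 (0.80, adjusted p = 0.570) and Ndufb8 (0.63, adjusted p = 0.570), both of complex I. The core subunits had 0.10 for Ndufs1, 0.34 for Sdhb, 0.51 for Uqcrc1, 0.23 for Cox4i1, 0.52 for Atp5b, -0.09 for mt-Nd1, -0.06 for mt-Cytb and -0.13 for mt-Co1.

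In non-transduced nuclei over the 3 vector groups, a few nuclear members were higher in VIP nuclei than in all nuclei. Of 81 tested, 5 were higher and 0 lower, a smaller share than the 10.7% of 22855 genes called higher and the 27.4% called in either direction. With no adjustment, 12 were higher and 0 lower at p under 0.05 (14.7% and 21.1% of all genes). Sdhc, a membrane anchor of complex II, had 16.04, 30.2 and 60.1 CPM in 22 VIP libraries and 10.2, 23.1 and 38.5 CPM in 22 libraries of all nuclei, and 18 of 22 VIP libraries lay above the median of all nuclei (log2 fold change 0.50 ± 0.17, adjusted p = 0.0254). Ndufa11, which joins the arms of complex I, had 17.2, 44.3 and 168 CPM in VIP nuclei and 17.0, 33.2 and 67.6 CPM in all nuclei, above the median in 19 of 22 (0.57 ± 0.20, adjusted p = 0.0290). Ndufc1, another small complex I subunit, had 5.5, 15.7 and 59.3 CPM in VIP nuclei and 4.89, 11.8 and 23.1 CPM in all nuclei (0.71 ± 0.27, adjusted p = 0.0464). The ranges overlapped for each of these genes.

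Uqcrq had 10.9, 41.8 and 417 CPM in VIP nuclei and 23.1, 33.9 and 48.3 CPM in all nuclei (log2 fold change 0.68 ± 0.26, adjusted p = 0.0473). The uncertain entry Atp5o ENSMUSG00000116933 had 211, 303 and 469 CPM in VIP nuclei and 177, 226 and 273 CPM in all nuclei (0.44 ± 0.088, adjusted p = 0.000103), above the median in 21 of 22 libraries. DESeq2 called the same 5 genes. Without Kir2.1 library 9 only Sdhc (0.44, adjusted p = 0.0417) and Atp5o ENSMUSG00000116933 (0.40, adjusted p = 0.000145) passed, whereas Ndufa11 (0.44, adjusted p = 0.0544), Ndufc1 (0.59, adjusted p = 0.0825) and Uqcrq (0.36, adjusted p = 0.118) did not. Ndufc1 and Uqcrq were also lost with DESeq2-type size factors (adjusted p = 0.0564 and 0.0589) and with the sex label (0.0556 and 0.0643), and Ndufc1 and Sdhc without a low-count filter (0.0715 and 0.0555). The remaining core subunits had log2 fold changes of -0.04 for Ndufs1, 0.08 for Sdhb, 0.26 for Uqcrc1, 0.27 for Cox4i1 and 0.36 for Atp5b. The median over the nuclear members tested was 0.23 with 72 of 81 above 0, beside -0.05 over all genes, and 0.14 with 63 of 81 above 0 without the libraries that stand apart.

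Of 7 mitochondrial members 0 passed with edgeR or DESeq2. At an unadjusted p of 0.05, mt-Nd2 was the 1 member higher and 0 were lower, and the median was 0.18. Their log2 fold changes included 0.18 for mt-Nd1, 0.09 for mt-Cytb and 0.06 for mt-Co1. The populations differ in cell makeup by design: VIP markers summed to 12574 to 21582 CPM in Kir2.1 VIP nuclei and 132 to 844 CPM in Kir2.1 all nuclei, and oligodendrocyte markers to 186 to 544 CPM in Kir2.1 VIP nuclei and 1179 to 4441 CPM in Kir2.1 all nuclei.

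**Figure D5:**
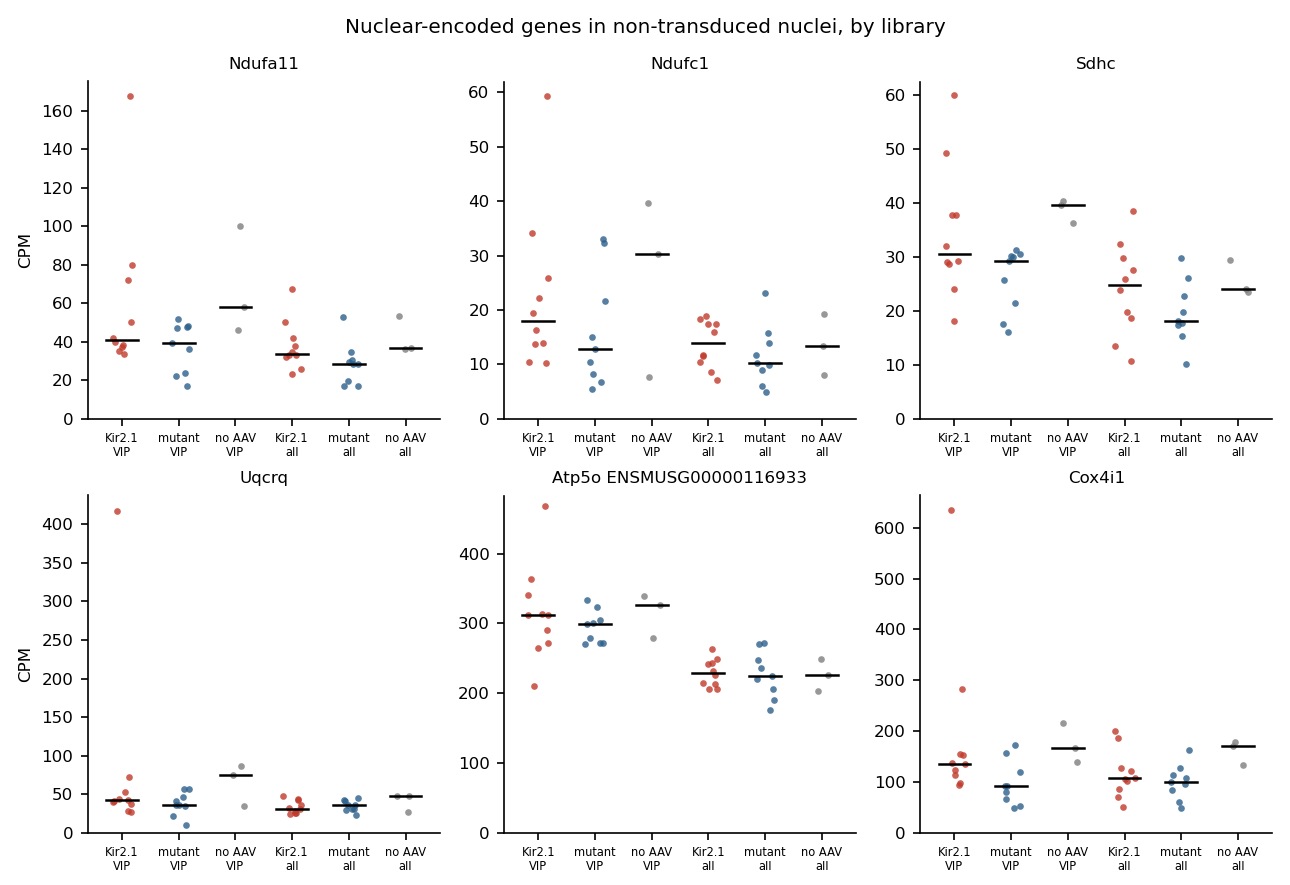
CPM (y axes) in the 44 non-transduced libraries of the 5 nuclear-encoded genes called in VIP against all nuclei, and of Cox4i1 for comparison, 1 point per library and a bar at the median, with the 3 VIP groups on the left and the 3 groups of all nuclei on the right. One Kir2.1 VIP library lies far above the rest in Uqcrq (417 CPM), Cox4i1 (634 CPM), Ndufa11 (168 CPM) and Ndufc1 (59.3 CPM).

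The promoters of these genes were examined for motifs of factors known to regulate respiratory genes. From 250 bases before to 50 after the start, RefSeq's GRCm38.p6 annotation gave promoters for 68 of the 85 nuclear members, and both strands were searched. A gene was counted once if any of its promoters matched, and the comparison set was all 17492 protein-coding genes with a promoter, members included. The NRF1 motif, spelled by the capitals in Ndufa11, occurred in 7.35% of the 68, against 1.47% of the 17492 genes. A looser form that allows any base at 1 position, and so includes it, occurred in 25% against 7.17%. The ETS motif CCGGAAG, bound by GABPA among others, occurred in 23.5% against 12.9%. The YY1 motif AAGATGGCG occurred in 10.3% against 2.14%. These are matches of letters and were not tested for binding. Of the complex I members named above, the promoters of Ndufa13 and Ndufc2 held none of the 4 sequences in this window, and those of Ndufa11 (plus strand) and Ndufc1 (minus strand) held 1 matching stretch each, shown in capitals: NRF1 in Ndufa11, which matches both forms, and YY1 in Ndufc1.
Ndufa11 chr17:56717512-56717811: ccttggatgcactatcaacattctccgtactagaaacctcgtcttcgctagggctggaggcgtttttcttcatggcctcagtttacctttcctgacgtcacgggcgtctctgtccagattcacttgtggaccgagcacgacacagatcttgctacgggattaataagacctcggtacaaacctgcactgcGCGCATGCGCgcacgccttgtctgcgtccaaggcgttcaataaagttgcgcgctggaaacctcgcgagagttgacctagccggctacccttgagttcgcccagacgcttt
Ndufc1 chr3:51408906-51409205: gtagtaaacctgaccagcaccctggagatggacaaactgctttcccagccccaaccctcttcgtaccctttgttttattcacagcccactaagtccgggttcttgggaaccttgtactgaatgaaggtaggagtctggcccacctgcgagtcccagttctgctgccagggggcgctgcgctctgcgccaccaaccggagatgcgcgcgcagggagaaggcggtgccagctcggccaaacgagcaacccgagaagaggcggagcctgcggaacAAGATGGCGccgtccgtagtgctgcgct

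Within VIP nuclei, transduction itself was examined for each vector. With Kir2.1, 0 of 81 nuclear and 0 of 7 mitochondrial members passed in transduced against non-transduced nuclei with edgeR, beside 0.769% of genes called (0.17% higher and 0.599% lower). Taken unadjusted, 0 nuclear members were higher and 9 lower at p under 0.05 (4.05% and 5.25% of all genes), 0 mitochondrial members were higher and 1, mt-Nd2, was lower, and DESeq2 called 1 nuclear member lower, Cox6a2 (log2 fold change -2.28, adjusted p = 0.0361). The nuclear median was -0.25, beside 0.01 over all genes, and -0.06 without libraries 1 and 9 that stand apart. The mitochondrial median was -0.33, with -0.33 for mt-Nd1, -0.27 for mt-Cytb and -0.19 for mt-Co1. For the core nuclear subunits the values were 0.06 for Ndufs1, 0.04 for Sdhb, 0.04 for Uqcrc1, -0.58 for Cox4i1 and 0.02 for Atp5b.

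With the mutant, 0 of 81 nuclear and 0 of 7 mitochondrial members passed with edgeR or DESeq2, beside 0.00943% of genes called. Unadjusted, 2 nuclear members were higher and 0 lower at p under 0.05 (2.49% and 2.74% of all genes), and 0 mitochondrial members differed. The medians were 0.23 and -0.19, beside -0.01 over all genes. The core values were 0.18 for Ndufs1, 0.28 for Sdhb, 0.39 for Uqcrc1, 0.32 for Cox4i1, 0.41 for Atp5b, -0.29 for mt-Nd1, -0.19 for mt-Cytb and -0.05 for mt-Co1. In the interaction of vector and transduction, 0 nuclear and 0 mitochondrial members passed with edgeR or DESeq2, beside 0.401% of genes. Before adjustment, 0 nuclear members were higher and 9 lower at p under 0.05 (3.74% and 4.03% of all genes), with a median of -0.45 (-0.33 without the libraries that stand apart), and 0 mitochondrial members differed, with a median of -0.14. The interaction estimates were -0.13 for Ndufs1, -0.24 for Sdhb, -0.35 for Uqcrc1, -0.89 for Cox4i1, -0.39 for Atp5b, -0.04 for mt-Nd1, -0.08 for mt-Cytb and -0.14 for mt-Co1.

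Injected cortex was compared with cortex that received no AAV, where only 3 libraries serve as the baseline and all carry the male label. In non-transduced VIP nuclei, 0 of 81 nuclear and 0 of 7 mitochondrial members passed with edgeR, beside 0.00943% of genes. Before adjustment, 1 nuclear member was higher and 5 lower at p under 0.05 (6.51% and 3.37% of all genes), 1 mitochondrial member, mt-Nd6, was higher (log2 fold change 0.84, adjusted p = 0.504), and DESeq2 called 1 nuclear member higher, Atp5l (1.98), a gene with 84.9% shared words. The nuclear median was -0.23 and the mitochondrial median 0.37, beside 0.12 over all genes tested, with 18 of 81 nuclear members above 0. Without the libraries that stand apart the nuclear median was -0.33, with 12 of 81 above 0 and 10 lower at an unadjusted p of 0.05. Without uninjected library 2 it was -0.14, with 31 of 82 above 0, and without uninjected library 1 the mitochondrial median was 0.14, against 0.55 without library 2. The core values were -0.27 for Ndufs1, -0.28 for Sdhb, -0.83 for Uqcrc1, -0.34 for Cox4i1, -0.94 for Atp5b, 0.39 for mt-Nd1, 0.31 for mt-Cytb and 0.08 for mt-Co1.

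In all nuclei, 0 of 80 nuclear and 0 of 7 mitochondrial members passed in injected against uninjected cortex with edgeR, beside 0.211% of genes. Before adjustment, 0 nuclear members were higher and 10 lower at p under 0.05 (7.64% and 3.08% of all genes), 0 mitochondrial members differed, and DESeq2 called 1 lower, Atp5b. Atp5b had 141, 264 and 384 CPM with Kir2.1 and 66.3, 209 and 270 CPM with the mutant, against 387, 439 and 451 CPM in the 3 libraries without AAV, all with the male label. Its log2 fold change was -0.92 ± 0.26, with an adjusted p of 0.186 by edgeR and 0.0392 by DESeq2. The nuclear median was -0.35 and the mitochondrial median 0.16, beside 0.09 over all genes. The mitochondrial median was 0.00 without uninjected library 1, 0.40 without library 2 and -0.01 without library 3. The other core values were -0.41 for Ndufs1, -0.21 for Sdhb, -0.29 for Uqcrc1, -0.58 for Cox4i1, 0.19 for mt-Nd1, 0.16 for mt-Cytb and 0.06 for mt-Co1.

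Ppargc1a, the coactivator PGC-1 alpha that drives mitochondrial biogenesis, passed in 0 of the 13 comparisons with edgeR. It had 40.4, 53.0 and 78.3 CPM in Kir2.1 and 38.7, 86.1 and 117 CPM in mutant transduced VIP nuclei, a difference of -0.52 on the log2 scale with an adjusted p of 0.325, and 48.8, 73.1 and 87.5 CPM in Kir2.1 and 66.5, 88.8 and 122 CPM in mutant transduced neurons (-0.30, adjusted p = 0.313). Elsewhere the log2 fold changes of Ppargc1a were 0.02 between vectors in non-transduced VIP nuclei, -0.34 between vectors in all nuclei, -0.05 in VIP against all nuclei, -0.36 and -0.17 in VIP nuclei against neurons with Kir2.1 and with the mutant, -0.21 and 0.34 in transduced against non-transduced VIP nuclei with Kir2.1 and with the mutant, and 0.31 and 0.54 in injected against uninjected VIP nuclei and all nuclei. The 2 interaction estimates were -0.19 with population and -0.54 with transduction.

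The lists of genes around the respiratory chain held few calls between vectors, with 2 of 126 tested in transduced VIP nuclei (1.59%, beside 1.39% of all genes). In transduced VIP nuclei 1 of 47 assembly factors passed, Ttc19, which acts on complex III and fell to 81.7, 96.8 and 143 CPM in Kir2.1 nuclei, against 121, 157 and 229 CPM in mutant nuclei (log2 fold change -0.61, adjusted p = 0.0481). Of 17 glycolysis entries, Pfkp, the platelet-type phosphofructokinase, passed and fell to 81.0, 109 and 161 CPM in Kir2.1 nuclei, against 139, 194 and 252 CPM in mutant nuclei (-0.73, adjusted p = 0.00113). For Pfkp the interaction of vector and transduction also passed (-0.91, adjusted p = 0.0263). Of 23 biogenesis regulators, 17 genes of the tricarboxylic acid cycle and pyruvate dehydrogenase and 16 carriers, 0 passed between vectors in these nuclei.

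Between VIP nuclei and all nuclei, 4 of 47 assembly factors were higher, beside 10.7% of all genes called higher and 16.7% called lower: Uqcc1 (log2 fold change 0.73, adjusted p = 5.56e-05), needed for complex III, and the complex I factors Ndufaf7 (0.48, adjusted p = 0.0258), Ndufaf6 (0.88, adjusted p = 0.0443) and Ndufaf5 (0.55, adjusted p = 0.0445). Idh2, the mitochondrial isocitrate dehydrogenase that uses NADP, was higher (1.34, adjusted p = 9.95e-08), with a median of 85.7 CPM in Kir2.1 VIP nuclei and 24.2 CPM in Kir2.1 all nuclei. Suclg2, of the GTP-forming succinyl-CoA ligase, was lower (-2.18, adjusted p = 0.00198). Of 16 carriers 2 were higher and 4 lower. The lower ones included the uncoupling protein Ucp2 (-3.48, adjusted p = 0.00753) and the aspartate-glutamate carrier Slc25a13 (-1.92, adjusted p = 0.00942), while its brain counterpart Slc25a12 was higher (0.34, adjusted p = 0.0135). The pyruvate carrier subunit Mpc1 was lower (-0.41, adjusted p = 0.0188). Esrrg, an orphan nuclear receptor of respiratory genes, was the 1 of 23 biogenesis regulators to pass and was lower (-0.60, adjusted p = 0.00208). Of 17 glycolysis entries 0 passed with edgeR.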

How the data were processed

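RNA of 79 libraries of sorted nuclei was analysed. The authors deposited a single table of raw, unnormalized counts for 55335 genes. Tools listed in the submitters' processing notes are HOMER 4.9.1, STAR 2.5.3a and cutadapt 1.18, with the mm10 build; which annotation was counted, how, and whether by strand is not given in the sources used here. Identifiers were matched to GENCODE vM21 (55154 matched and 181, with 0.0264% of counts, did not). Reverse transcription used an oligo-dT primer and 17 cycles of PCR, per the labels' protocols, without molecular identifiers. The protocol text also names harvest after light; the library labels were followed.

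Genes were tested with edgeR 4.0.16 in R 4.3.3 (quasi-likelihood F test, TMM scaling, low counts removed by filterByExpr at 10 per library and 15 in total), two-sided, with Benjamini-Hochberg adjustment over all genes tested and a threshold of 0.05. Fits by group held 41 libraries of VIP nuclei, 22 of all nuclei, 16 of transduced neurons, 35 of transduced nuclei, or 44 non-transduced ones. The SE is the log2 fold change over the root of the F statistic. CPM use TMM-adjusted library sizes over all 79 libraries. Shares of all genes are from edgeR, and no DESeq2 share stands beside the DESeq2 calls of single members. The code was tested on simulated data. Alternatives were DESeq2 1.42.0, size factors of the DESeq2 type (RLE), no filter, a minimum count of 30, the sex label, a replicate block, fewer groups, single libraries left out, libraries that stand apart left out, and mitochondrial genes out of the library size.

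The members, the gene lists and the cell type markers were chosen with earlier results of these data known. Named were members past the threshold, by smallest p, 1 core member per complex and genome in every comparison, complex IV isoforms, the most abundant and the undetected members, list genes past the threshold, and Ppargc1a and Kcnj2. Ndufv3, Atp5j2, Ndufb8, Ndufa6, Sdha, Atp5f1 and Atp5l, nearest the threshold or called by DESeq2 alone, were named after their values were seen. Titles number the replicates, the labels do not say that a number marks an animal or batch, and libraries were treated as unpaired. One gene list is not reported here.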

Additional observations from a re-analysis of the deposited data

Results flagged for a closer look

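Values were screened for a library far from the rest of its group by Dixon's criterion at the 95% level. It was applied to 160 groups of values, and 15 held such a library, where chance gives about 8.

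Library 9 of the Kir2.1 non-transduced VIP group accounts for 7 of them. It had 417 CPM of Uqcrq (next highest 72.0 CPM), 634 CPM of Cox4i1 (next 283), 243 CPM of Ndufa13 (next 134), 168 CPM of Ndufa11 (next 79.8), 88.2 CPM of Ndufc2 (next 50.0) and 59.3 CPM of Ndufc1 (next 34.1), and nuclear members took 1.06% of its counts (next 0.658%). Cytosolic ribosomal protein genes took 0.701% and mitochondrial ribosomal RNAs 0.869% of its counts, and it had 17784 genes detected; their part in these values was not tested.

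Library 1 of the mutant transduced VIP group lay apart at both ends. Nuclear members took 0.176% of its counts, against 0.39% in the next lowest library, and mt-Nd6 had 55.1 CPM, against 33.8 CPM in the next highest. It was the lowest of 9 libraries in 60 of the 81 nuclear members tested. Library 1 was also the lowest in nuclear share among mutant non-transduced VIP nuclei (0.156%) and mutant all nuclei (0.212%). In cytosolic ribosomal protein genes, mutant library 1 was the lowest of its group in transduced VIP, non-transduced VIP and all nuclei (0.0860%, 0.0612% and 0.118%). The source of this was not tested.

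Single genes stood out in 6 further groups. Ndufa13 had 95.2 CPM in library 10 of the Kir2.1 transduced neurons (next 46.1) and 90.7 CPM in library 3 of the Kir2.1 all nuclei (next 57.0). Ndufc2 had 50.7 CPM in library 2 of the Kir2.1 all nuclei (next 29.2) and 59.8 CPM in library 5 of the mutant non-transduced VIP group (next 38.3). Ndufa11 had 52.8 CPM in library 8 of the mutant all nuclei (next 34.9), and Ndufc1 had 35.8 CPM in library 1 of the Kir2.1 transduced VIP group (next 20.4).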

How the results depend on the processing

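The number of nuclear members called was within 1.5 times the reported count except as follows. With DESeq2 it was 1 for Kir2.1 against the mutant in transduced VIP nuclei, in transduced neurons and in non-transduced VIP nuclei, 1 for transduced against non-transduced Kir2.1 VIP nuclei, 2 and 4 for VIP nuclei against neurons with Kir2.1 and with the mutant, and 1 for injected against uninjected VIP nuclei and for all nuclei. With RLE size factors it was 3 for VIP against all nuclei and 1 for VIP nuclei against neurons with Kir2.1. Without a filter it was 3 for VIP against all nuclei and 1 for each injection comparison. With the sex label it was 3, and without the libraries that stand apart 2, for VIP against all nuclei. For VIP nuclei against neurons with the mutant, a minimum count of 30 gave 4, the groups compared alone 4, and the replicate block 15 (with 3939 of 15599 genes called), among them Atp5b (log2 fold change 0.61, adjusted p = 0.00344). For VIP against all nuclei the block also called 5, with Ndufs7 and Ndufc2 (adjusted p = 0.0310 and 0.0404) in place of Ndufc1 and Uqcrq (0.132 and 0.164). For VIP nuclei against neurons with Kir2.1 it called 4 of the 7 mitochondrial members, without mt-Nd6 (adjusted p = 0.124) and mt-Nd4 (0.116). Leaving out 1 library gave 0 to 2 nuclear and 0 to 2 mitochondrial calls between vectors in transduced neurons. The sex label and the replicate block each gave 0 mitochondrial calls there (mt-Nd1 under the block: log2 fold change -0.55, adjusted p = 0.111). The cause of these shifts was not tested. The nuclear share without AAV in all nuclei was 0.471% on TMM-adjusted library sizes, against 0.523%. Counted as 1 gene value under 1 alternative, 1575 checks kept their side of the threshold, 26 lost a call and 4 gained one. Most of these checks were of values that had not passed and so had no call to lose. The sign of 21 of 114 named log2 fold changes turned under at least 1 alternative; 0 of these had passed, and their reported sizes were at most 0.14. The labels do not say what a replicate number marks. Between vectors, 17 of 34 same-numbered pairs differed in the sex label, their deviations from the group means had a median correlation of 0.01, and 8 of 68 libraries correlated best with their own number. Within a vector, 4 of 54 pairs differed in the sex label, correlations ran from -0.04 to 0.34 with a median of 0.03, 3 pairs exceeded 0.1, and 63 of 108 libraries correlated best with their own number. This is a hint from the data that numbers may be shared within a vector, not a pairing given by the design. Low counts limit Cox6a2 and the minor isoforms, and 50 to 100 nuclei per library limit all values.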
